A study of Mus musculus and Homo sapiens with 19 samples.

Results

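The genes described here are 7 integrin subunits of receptors for the RGD motif, and not the full set of such subunits. RGD is the arginine-glycine-aspartate stretch of fibronectin, vitronectin, osteopontin and the latent TGF-beta complexes. The 7 members were taken by gene symbol: the alpha subunits Itgav and Itga5, and the beta subunits Itgb1, Itgb3, Itgb5, Itgb6 and Itgb8. Other integrin subunits, Itga8 and Itga2b among them, were counted as a separate list. Each was found once in every table, so the 7 members stood among 24421 mouse genes of the knockdown table, 57992 human genes of the MDA-MB-231 table and 55573 mouse genes of the co-culture tables. The measurements were RNA-seq read counts of cultured cell lines. The knockdown compared 3 libraries of 4T1, a mouse mammary tumour line, transduced with pLKO.1 shPHGDH (shPHGDH) with 3 libraries carrying the scramble hairpin in the same vector (shSCR). The overexpression experiment compared 3 libraries of the human breast cancer line MDA-MB-231 labelled PHGDH OE, from the pLHCX PHGDH vector, with 3 control libraries. In the co-culture set, 4T1 and EMT6.5, another mouse mammary tumour line, were grown with Bend3 and sorted by FACS, and both fractions of each mixture gave 1 library; 1 further library came from each line cultured alone. Bend3 is a mouse brain endothelial line immortalised with polyoma middle T antigen, so it stands for transformed endothelium in a dish. PHGDH encodes the first enzyme of serine synthesis from a glycolytic intermediate.

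An integrin is a pair of 1 alpha and 1 beta chain, and the pair decides which ligand is bound. The chain alpha-v (Itgav) pairs with beta-1, beta-3, beta-5, beta-6 and beta-8, whereas alpha-5 (Itga5) pairs with beta-1 alone to form the main fibronectin receptor. The pair of alpha-v and beta-3 is known from angiogenic endothelium, osteoclasts and invasive tumour cells, and alpha-v paired with beta-6 or beta-8 releases active TGF-beta from its latent complex. The study's authors worked on integrin alpha-v beta-3 in tumour cells that had lost PHGDH. The values here are mRNA, and neither surface protein nor its glycosylation was measured.

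Libraries held 12.7 to 20.5 M assigned counts in the knockdown, 19.5 to 23.8 M in MDA-MB-231 and 4.27 to 7.67 M in the co-culture set. In the co-culture libraries 34.0% to 39.8% of the recorded total was assigned to genes, and 48.2% to 55.3% was marked as not uniquely aligned. In MDA-MB-231 these parts were 84.8% to 85.7% and 3.54% to 3.70%. Levels are given as CPM, counts per 1 M counts of the TMM-scaled library. A gene was called when its Benjamini-Hochberg adjusted p over all genes tested was under 0.05 in edgeR's quasi-likelihood test, and log2 fold changes carry that fit's standard error (SE). Nothing in the labels says that replicates were separate transductions, so the p-values measure only the spread between these libraries. Replicate 1 of shPHGDH stood apart from replicates 2 and 3, with a chi-square over degrees of freedom of 14.9 and 20.8, against 1.76 between those. The targeted gene checked 1 label and went against another. Phgdh had 20.7, 20.195 and 21.7 CPM in shPHGDH libraries, against 167, 172 and 163 CPM in shSCR libraries, whereas PHGDH had 5.98, 4.53 and 5.71 CPM in the libraries labelled PHGDH OE, against 15.5, 15.6 and 18.3 CPM in control libraries. Because PHGDH mRNA was lower under the overexpression label, those libraries are called by their label throughout. All 14 endothelial markers were at 5 CPM or more in each Bend3 library, and 12 of 14 epithelial markers were in each 4T1 library. Of the 14 endothelial markers, 5 in 4T1 alone and 8 in EMT6.5 alone were at 5 CPM or more as well. Each shSCR library of 4T1 had 1 at that level, and the source of the endothelial RNA in the tumour monocultures was not tested. EMT6.5 cultured alone had 5 of the 14 epithelial markers at that level, with Krt5, Cldn7, Esrp1, Grhl2 and Trp63 at 0 counts, and its 7 fibroblast markers summed to 2894 CPM, against 10.7 CPM in 4T1 alone. Col1a1 at 1339 CPM and Col1a2 at 1521 CPM made up nearly all of that sum, while Col3a1, Dcn and Lum had 0 counts.

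The 3 mouse lines carried different sets of beta chains. Levels between genes were compared per length, as CPM per kb of exon. Itgb1, the beta chain shared by the largest number of integrins, led in every mouse library, with 244 CPM per kb in 4T1 alone, 320 in EMT6.5 alone and 198 in Bend3 alone. Among the beta chains other than Itgb1, Itgb5, a vitronectin receptor chain, came next in both tumour lines, at 22.0 CPM per kb in 4T1 alone and 117 in EMT6.5 alone. In Bend3 alone it was at 0.435 CPM per kb, and Itgb3 came next after Itgb1 there at 19.1. Itgb3 was also well detected in EMT6.5 alone, at 27.0 CPM per kb, while 4T1 alone gave 0.0378, which is a single count.

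Of the alpha chains, Itga5 differed more than Itgav between the libraries of the lines cultured alone. Itgav was at 9.78 CPM per kb in 4T1 alone, 9.60 in EMT6.5 alone and 3.93 in Bend3 alone, and the exact 95% counting intervals of the 2 tumour lines overlapped (8.92 to 10.7 and 8.96 to 10.3). Itga5 was at 0.633 CPM per kb in 4T1 alone, 8.69 in EMT6.5 alone and 6.45 in Bend3 alone. The 4T1 shSCR libraries of the knockdown set had Itga5 at 8.73 ± 0.187 CPM per kb and Itgav at 29.9 ± 0.753 (SD, n = 3). Itgb6 was at 2.19 ± 0.204 and Itgb3 at 0.336 ± 0.0470 in those libraries. The low Itga5 of 4T1 alone was thus not seen in the other set of 4T1 cells, and the reason was not tested. In EMT6.5 alone the intervals of Itgav and Itga5, neighbours in the order of levels, overlapped. In 4T1 alone those of Itga5 and Itgb6, of Itgb6 and Itgb8 and of Itgb8 and Itgb3 overlapped, so the order of these 4 was not resolved. Itgb6 and Itgb8, the TGF-beta releasing chains, were the least expressed of the beta chains in EMT6.5 alone, at 0.191 and 1.05 CPM per kb, and both had 0 counts in Bend3 alone, where a count of 0 allows up to 3 counts. Counting intervals and floors cover counting error only.

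Taken as shares of the summed per-length level of the 4 beta chains other than Itgb1 that pair with alpha-v, Itgb5 made up 98.7% and Itgb3 0.170% in 4T1 alone. In Bend3 alone Itgb3 made up 97.8% and Itgb5 2.22%. EMT6.5 alone lay between, with 80.6% Itgb5 and 18.6% Itgb3.

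**Figure D1:**
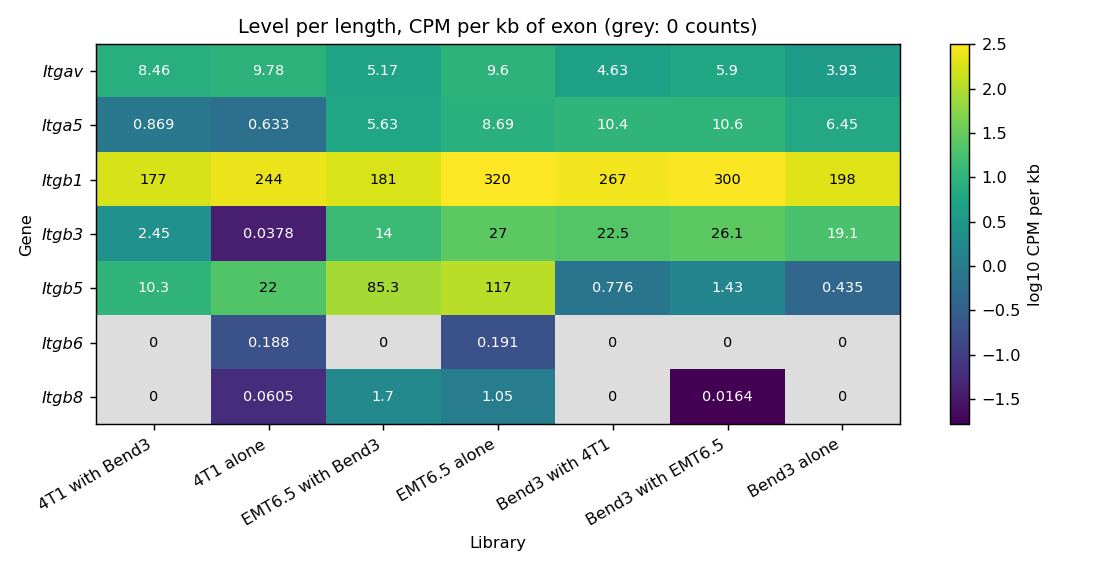
Level per length (CPM per kb of exon) of each member (rows) in the 7 libraries of the co-culture set (columns), coloured on a log10 scale, with 0 counts in grey. Itgb1 leads in every library, Itgb5 is high in the tumour lines, and Itgb3 is high in Bend3 and EMT6.5 and at 2.45 in 4T1 with Bend3, against 0.0378 in 4T1 alone.

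With Phgdh lowered in 4T1, mRNA of 3 receptor chains was clearly higher. Itgb3 was 3.33-fold, Itga5 1.89-fold and Itgb5 1.74-fold higher in shPHGDH, the common partner Itgav was 1.09-fold higher, and Itgb1 was 1.08-fold lower. Of the 6 members that passed the filter on low counts, 4 were called higher, 1 lower, and 1 (Itgb6) was not called. Over all 11568 genes tested, 30.1% were called higher, 29.6% lower and 59.7% in either direction, so a call by itself sets a gene little apart in this experiment. How many of all genes had groups without overlap was not counted, so a lack of overlap does not set a member apart either. The median log2 fold change of the 6 members was 0.46, beside -0.01 over all genes tested. Without shPHGDH replicate 1 the same 5 members were called, and the log2 fold change of Itgb3 was 1.77. By size, 1.84% of the genes tested had a larger absolute log2 fold change than Itgb3, 5.57% than Itga5, 6.93% than Itgb5, and 66.5% than Itgav.

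Itgb3, the beta chain of the alpha-v beta-3 receptor, had 6.31, 6.36 and 6.88 CPM in shPHGDH libraries, against 2.19, 2.09 and 1.67 CPM in shSCR libraries. The lowest shPHGDH library lay above the highest shSCR library. These levels came from 100, 80 and 140 counts in shPHGDH libraries and 32, 36 and 32 counts in shSCR libraries. Itgb3 rose in shPHGDH with a log2 fold change of 1.74 (SE 0.154, edgeR adjusted p = 1.51e-10), from a low base: per length it reached 1.10 ± 0.0530 CPM per kb in shPHGDH and 0.336 ± 0.0470 in shSCR (SD, n = 3 each). It lies on chromosome 11 from 104608000 to 104670476, plus strand, on GRCm38, where the median over all genes tested on the chromosome was -0.04 (log2 fold change).

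Itga5, the alpha chain of the fibronectin receptor, had 80.3, 86.2 and 79.0 CPM in shPHGDH libraries, against 42.0, 43.4 and 43.8 CPM in shSCR libraries. The groups did not overlap, and Itga5 rose with a log2 fold change of 0.92 (SE 0.0437, edgeR adjusted p = 2.86e-16). On its chromosome, 15, the 444 genes tested had 0.28 as their median (log2 fold change), and 311 of them were called higher and 23 lower. The log2 fold change of Itga5 minus that median was 0.64. Whether the shift of the chromosome has a part in the Itga5 value was not tested.

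Itgb5, whose protein pairs with alpha-v to bind vitronectin, had 70.8, 74.7 and 72.5 CPM in shPHGDH libraries, against 40.0, 42.6 and 42.2 CPM in shSCR libraries. The groups lay well apart, and Itgb5 rose with a log2 fold change of 0.80 (SE 0.0438, edgeR adjusted p = 6.13e-15). Chromosome 16, which holds it, had a median of 0.12, and the difference to that median was 0.68.

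Itga5 and Itgb5 rose together in the replicated knockdown, and the 250 bases before each start site are shown, from RefSeq on GRCm38.p6, which held promoters of 6 of the 7 members (Itgb3 is named only). Itga5 lies on the minus strand (upstream window chr15:103366792-103367041) and Itgb5 on the plus strand (chr16:33829415-33829664). Capitals mark the GC box GGGCGG on either strand, the motif bound by Sp1-type factors.
Itga5: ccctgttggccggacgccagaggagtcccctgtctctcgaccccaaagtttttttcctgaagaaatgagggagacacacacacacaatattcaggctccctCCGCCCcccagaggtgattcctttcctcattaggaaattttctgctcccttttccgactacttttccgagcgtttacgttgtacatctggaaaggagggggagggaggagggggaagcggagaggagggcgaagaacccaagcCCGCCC
Itgb5: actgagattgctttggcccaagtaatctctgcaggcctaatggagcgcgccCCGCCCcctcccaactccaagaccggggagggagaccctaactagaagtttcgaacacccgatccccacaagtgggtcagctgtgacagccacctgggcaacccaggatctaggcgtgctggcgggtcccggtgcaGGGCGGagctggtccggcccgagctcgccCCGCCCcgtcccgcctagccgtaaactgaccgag
The Itga5 window held 2 matches and the Itgb5 window 3. Of all 32851 promoter windows of this length, 32.7% held at least 1 match. Itgb1, which was called lower, held 1 match, while Itgav, which was called higher, held none. Itgb6, which was not called, held none. Itgb8, which had fewer counts in shPHGDH but did not pass the filter, held none either. Neither printed window held TATAAA (12.4% of all windows), CCAAT (33.8%) or the AP-1 element TGANTCA (6.75%), each searched on both strands. None of these motifs contains another, and a match is a description of letters.

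Itgav, the alpha chain common to the vitronectin receptors, had 352, 350 and 349 CPM in shPHGDH libraries, against 318, 315 and 331 CPM in shSCR libraries. The groups did not overlap, but the difference was small: Itgav rose with a log2 fold change of 0.12 (SE 0.0263, edgeR adjusted p = 0.000217).

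Itgb1 was the member called lower. It had 2077, 2093 and 2035 CPM in shPHGDH libraries, against 2192, 2237 and 2261 CPM in shSCR libraries. It fell with a log2 fold change of -0.11 (SE 0.0226, edgeR adjusted p = 0.000158). Chromosome 8, where it lies, had a median of -0.25 over 624 genes, of which 434 were called lower, so Itgb1 was 0.14 above the median of its own chromosome on the log2 scale.

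Itgb6, the epithelial chain that binds latent TGF-beta, had 15.4, 15.0 and 13.5 CPM in shPHGDH libraries, against 15.2, 14.3 and 17.2 CPM in shSCR libraries. The groups overlapped, and the log2 fold change of -0.10 (SE 0.0851, edgeR adjusted p = 0.299) was not called. Itgb8 did not pass the filter on low counts. It had 2, 0 and 2 counts in shPHGDH libraries, against 7, 9 and 7 counts in shSCR libraries. The ratio of these counts after scaling was 0.182 (exact 95% interval 0.0458 to 0.533, counting error only). When every gene was fitted without the filter, Itgb8 had a log2 fold change of -2.35 (edgeR adjusted p = 0.0055).

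**Figure D2:**
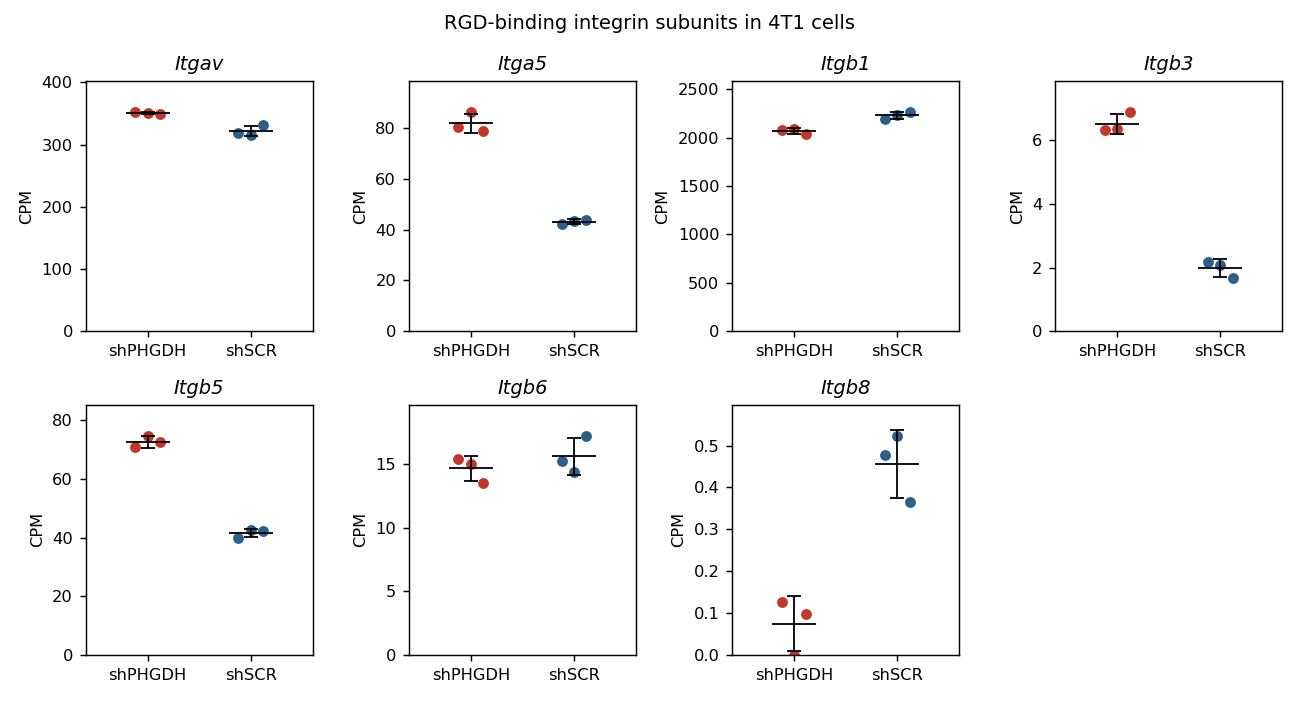
CPM of the 7 members in 4T1 cells, shPHGDH left of shSCR, 1 point per library, with the mean and SD (n = 3 each). Itgb3, Itga5 and Itgb5 sit clearly higher in shPHGDH, Itgav and Itgb1 differ little, and the groups overlap for Itgb6.

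Per length, the order of the members was the same in both groups. In shPHGDH it ran from Itgb1 at 507 ± 7.24 CPM per kb through Itgav at 32.6 ± 0.132, Itgb5 at 20.4 ± 0.547, Itga5 at 16.6 ± 0.778 and Itgb6 at 2.06 ± 0.141 to Itgb3 at 1.10 ± 0.0530 (SD, n = 3). In shSCR it ran from Itgb1 at 546 ± 8.57 CPM per kb through Itgav at 29.9 ± 0.753, Itgb5 at 11.7 ± 0.399, Itga5 at 8.73 ± 0.187 and Itgb6 at 2.19 ± 0.204 to Itgb3 at 0.336 ± 0.0470 (SD, n = 3). Itgb8 came last in both. Among the 4 beta chains other than Itgb1 that pair with alpha-v, Itgb3 made up 4.68% of the summed level in shPHGDH and 2.35% in shSCR, while Itgb6 made up 8.72% in shPHGDH and 15.4% in shSCR.

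Sums of markers of other cell types differed between the groups as well. The 14 endothelial markers summed to 47.9 to 51.9 CPM in shPHGDH and 27.4 to 32.7 CPM in shSCR, with 2 to 5 of them at 0 counts in each shPHGDH library and 5 to 7 in each shSCR library. Flt1 gave most of it, with 42.9 ± 1.49 CPM in shPHGDH and 25.1 ± 2.38 CPM in shSCR (SD, n = 3 each), and Pecam1 averaged 0.202 CPM in shPHGDH and 0.392 CPM in shSCR. The 14 epithelial markers summed to 4345 to 4397 CPM in shPHGDH and 4742 to 4889 CPM in shSCR. The 7 fibroblast markers summed to 10.2 to 11.7 CPM in shPHGDH and 6.84 to 8.13 CPM in shSCR, and the 8 leukocyte markers to 13.6 to 15.6 CPM in shPHGDH and 9.12 to 10.7 CPM in shSCR. Their part in the members' values was not tested. Of the shSCR libraries, replicates 1 and 2 ran on lane 5, and the other 4 libraries ran on lane 6. Within lane 6 the log2 fold change of Itgb3 was 1.97 (edgeR adjusted p = 1.72e-12), with 3 shPHGDH libraries and 1 shSCR library, which is assumed to vary like the others.

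The ligands of these receptors changed in both directions. Of 19 listed ligands, 14 were tested in the knockdown, 6 were called higher, 6 lower, and 2 were not called, with a median log2 fold change of 0.02. Spp1, which encodes osteopontin, a ligand of alpha-v beta-3, averaged 163 ± 2.54 CPM in shPHGDH and 57.5 ± 2.82 CPM in shSCR (log2 fold change 1.50), and Tgfb1, whose latent peptide carries an RGD motif, averaged 62.0 ± 3.32 CPM in shPHGDH and 33.4 ± 3.20 CPM in shSCR (0.90). Thbs1 (thrombospondin-1) averaged 1336 ± 20.1 CPM in shPHGDH and 3219 ± 31.5 CPM in shSCR (log2 fold change -1.27). Postn (periostin, -1.17) and Tnc (tenascin C, -0.83) fell as well. Fn1, which encodes fibronectin, averaged 4660 ± 46.8 CPM in shPHGDH and 7557 ± 83.5 CPM in shSCR (log2 fold change -0.70). The 19 ligands summed to 7456 to 7577 CPM in shPHGDH and 12371 to 12500 CPM in shSCR.

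Adaptors link the beta tails to actin. Of 22 tested, 11 were called higher, 5 lower, and 6 were not called, with a median log2 fold change of 0.09. Dab2, a clathrin adaptor that binds beta tails, rose with a log2 fold change of 1.25 (SE 0.0744), and Fermt2, the integrin activator kindlin-2, with 1.05 (SE 0.0340). Vcl (vinculin, 0.67), Parvb (beta-parvin, 0.53) and Pxn (paxillin, 0.38) rose too. Of the 4 tested genes that present latent TGF-beta, Ltbp1 rose (0.36), and Ltbp2 (-0.35), Ltbp4 (-0.30) and Ltbp3 (-0.16) fell. Among the other integrin subunits, 8 of 12 tested were called higher and 2 lower, with a median of 0.82. Itga7 (1.20), a laminin receptor chain, and Itga2 (1.17), a collagen receptor chain, showed the 2 largest changes of those with a mean of at least 5 CPM. Itgb2 (0.89), the leukocyte beta chain, and Itga6 (0.76) rose, while Itgb4 (-0.23), the beta partner of Itga6 in hemidesmosomes, fell.

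In MDA-MB-231 the members ran mostly lower in the libraries labelled PHGDH OE, which are also the libraries with less PHGDH mRNA. ITGB8 was 2.00-fold, ITGAV 1.45-fold, ITGB1 1.38-fold and ITGB5 1.15-fold lower, and ITGA5 was 1.20-fold higher. Of 6 members tested, 1 was called higher and 4 lower. Over all 17663 genes tested, 21.6% were called higher, 22.9% lower and 44.5% in either direction. The median log2 fold change of the 6 members was -0.33, beside -0.01 over all genes tested.

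ITGAV had 85.3, 91.2 and 81.2 CPM in libraries labelled PHGDH OE, against 140, 121 and 112 CPM in control libraries. The groups did not overlap, and ITGAV fell with a log2 fold change of -0.53 (SE 0.0743, edgeR adjusted p = 4.51e-06). ITGB1 had 738, 813 and 707 CPM in libraries labelled PHGDH OE, against 1082, 1000 and 1033 CPM in control libraries, and fell with -0.46 (SE 0.0604, edgeR adjusted p = 1.87e-06). Both chains were lower in each library labelled PHGDH OE than in any control library. The share of all genes without such overlap was not counted here either, so this describes the libraries only.

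ITGB8, a TGF-beta releasing chain that the 4T1 knockdown libraries held at 9 counts or fewer, had 5.0, 5.43 and 5.55 CPM in libraries labelled PHGDH OE, against 12.4, 9.94 and 9.50 CPM in control libraries. It fell with a log2 fold change of -1.0 (SE 0.131, edgeR adjusted p = 2.05e-06), and 5.84% of the genes tested had a larger absolute value. ITGB5 had 116, 116 and 124 CPM in libraries labelled PHGDH OE, against 139, 131 and 139 CPM in control libraries. It fell with -0.21 (SE 0.0596, edgeR adjusted p = 0.00707), and without the first library labelled PHGDH OE its adjusted p was 0.0555.

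ITGA5 had 166, 159 and 169 CPM in libraries labelled PHGDH OE, against 143, 138 and 132 CPM in control libraries. It rose with a log2 fold change of 0.26 (SE 0.0589, edgeR adjusted p = 0.00107). ITGB3 had 4.48, 4.61 and 5.39 CPM in libraries labelled PHGDH OE, against 3.62, 3.25 and 4.25 CPM in control libraries. The groups did not overlap, but the log2 fold change of 0.38 (SE 0.162, edgeR adjusted p = 0.0612) was not called. Without the third control library its adjusted p was 0.0383. ITGB6 did not pass the filter, with 9, 6 and 4 counts in libraries labelled PHGDH OE and 5, 3 and 6 counts in control libraries.

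**Figure D3:**
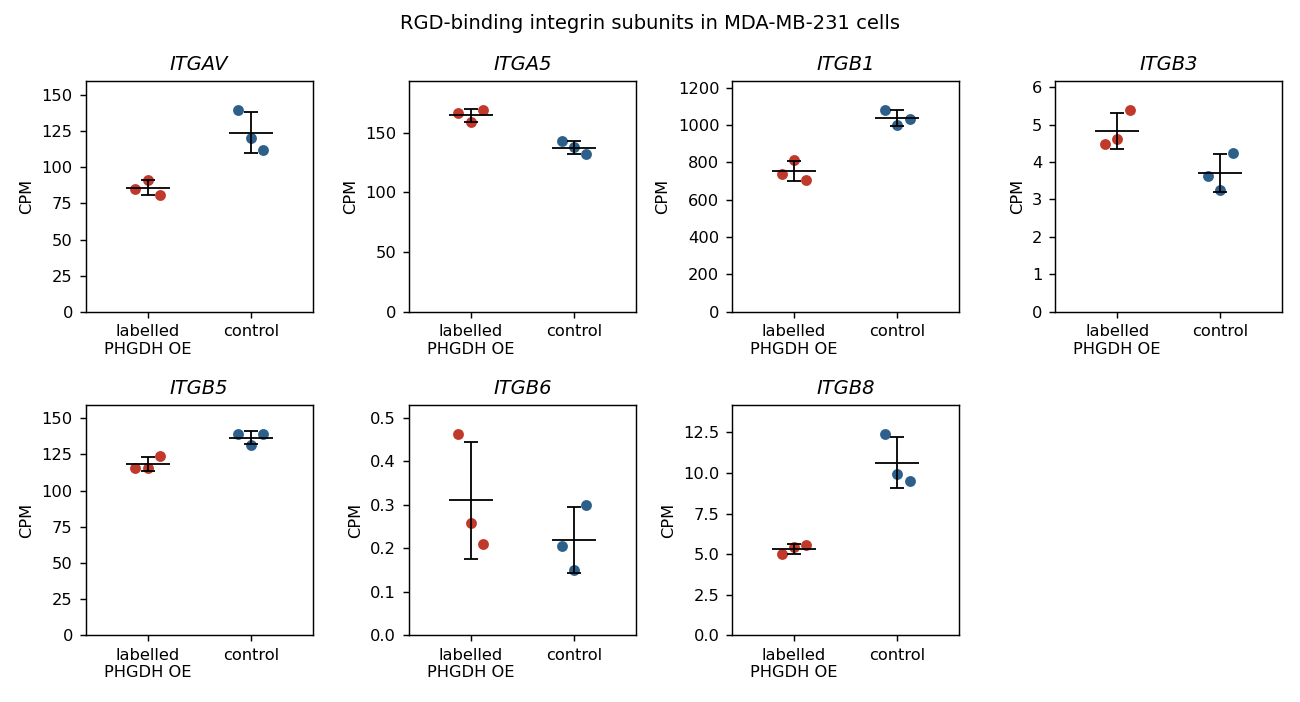
CPM of the 7 members in MDA-MB-231 cells, libraries labelled PHGDH OE left of control, 1 point per library, with the mean and SD (n = 3 each). ITGAV, ITGB1 and ITGB8 sit lower and ITGA5 higher in the libraries labelled PHGDH OE, and ITGB6 is under 0.5 CPM in all 6.

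Among the listed ligands of these receptors in MDA-MB-231, 5 of 13 tested were called higher, 5 lower, and 3 were not called. CTGF averaged 161 ± 4.79 CPM in libraries labelled PHGDH OE and 382 ± 32.0 CPM in control libraries (log2 fold change -1.24), and CYR61 averaged 415 ± 8.42 CPM in libraries labelled PHGDH OE and 766 ± 73.5 CPM in control libraries (-0.88). Both are matricellular proteins and textbook targets of YAP. EDIL3 (-0.67), FBN1 (fibrillin-1, -0.60) and L1CAM (-0.54) fell with them. Of 23 adaptors tested, 5 were called higher, 5 lower, and 13 were not called. TNS1 (tensin-1) averaged 13.9 ± 1.24 CPM in libraries labelled PHGDH OE and 1.62 ± 0.512 CPM in control libraries (3.10), and SRC (0.66) and VCL (0.48) rose, while PTK2, focal adhesion kinase (-0.61), and FERMT2 (-0.52) fell. LTBP3 (0.70), LTBP4 (0.28) and LTBP1 (0.17) rose, which makes 3 of the 5 tested presenters, with none called lower. Of 8 other integrin subunits tested, 1 was called higher (ITGB4, 0.57) and 5 lower, among them ITGA6 (-0.97), ITGA10 (-0.78), ITGB2 (-0.63) and ITGA1 (-0.25). The 14 epithelial markers, of which 13 were in the table, summed to 1936 to 2183 CPM in libraries labelled PHGDH OE and 1291 to 1322 CPM in control libraries. The endothelial markers summed to 179 to 192 CPM in libraries labelled PHGDH OE and 199 to 200.2 CPM in control libraries, with CDH5 and ERG at 0 counts in every library, and the 7 fibroblast markers to 11.5 to 13.1 CPM in libraries labelled PHGDH OE and 7.90 to 10.3 CPM in control libraries. The leukocyte markers overlapped between the groups. The part of these markers in the members' values was not tested.

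In co-culture each condition was 1 library, so no difference within a cell line has a replicate check or a test. Ratios are of CPM with exact 95% intervals that cover counting error only, and in sorted bulk libraries fewer cells of a type and less RNA per cell cannot be told apart. Among the members, the 2 tumour lines differed most at Itgb3. In 4T1 with Bend3 it had 14.4 CPM, against 0.223 CPM in 4T1 alone, from 64 and 1 counts. That is a ratio of 64.7 (interval 11.2 to 2595), whose upper end is wide because the monoculture gave 1 count. In EMT6.5 with Bend3 Itgb3 had 82.6 CPM, against 159 CPM in EMT6.5 alone, a ratio of 0.518 (interval 0.462 to 0.580). The difference between the lines was not tested.

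In 4T1 the other expressed members were lower with Bend3, apart from Itga5. Itgb5 had 36.8 CPM in 4T1 with Bend3, against 78.1 CPM in 4T1 alone, a ratio of 0.471 (interval 0.389 to 0.569). Itgb1 had 723 CPM in 4T1 with Bend3, against 995 CPM in 4T1 alone (ratio 0.726), and Itgav 90.9 CPM in 4T1 with Bend3, against 105 CPM in 4T1 alone (0.865). Itga5 had 4.29 CPM in 4T1 with Bend3, against 3.12 CPM in 4T1 alone, from 19 and 14 counts, and its interval of 0.652 to 2.96 spans 1. Itgb6 had 0 counts in 4T1 with Bend3, against 6 in 4T1 alone, and the exact 95% interval of the ratio ran up to 0.859. Itgb8 had 0 counts in 4T1 with Bend3 and 3 in 4T1 alone, both at or under the floor of 3 counts. Of the 4 members with a mean of at least 5 CPM, 1 was at least 2-fold higher and 1 at least 2-fold lower, in a comparison where 13% of 10137 genes were at least 2-fold higher, 12.6% at least 2-fold lower and 25.6% either. The beta chain makeup changed with it: Itgb3 made up 19.1% and Itgb5 80.9% of the summed per-length level of the 4 alpha-v partners other than Itgb1 in 4T1 with Bend3, against 0.170% and 98.7% in 4T1 alone. A large rise was not particular to Itgb3. Of 7 other integrin subunits with a mean of at least 5 CPM, 4 were at least 2-fold higher in 4T1 with Bend3 and 0 lower. Their median log2 ratio was 1.36. Itga1 had 199 CPM in 4T1 with Bend3, against 4.02 CPM in 4T1 alone, from 882 and 18 counts. Itga8 had 124 counts in 4T1 with Bend3, against 0 in 4T1 alone. In EMT6.5, 0 of 7 such subunits were at least 2-fold higher and 1 lower.

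In EMT6.5 every expressed member but Itgb8 was lower with Bend3. Itgav had 55.6 CPM in EMT6.5 with Bend3, against 103 CPM in EMT6.5 alone (ratio 0.539, interval 0.469 to 0.619), and Itgb1 had 741 CPM in EMT6.5 with Bend3, against 1306 CPM in EMT6.5 alone (0.567). Itga5 had 27.8 CPM in EMT6.5 with Bend3, against 42.8 CPM in EMT6.5 alone (0.649), and Itgb5 had 303 CPM in EMT6.5 with Bend3, against 416 CPM in EMT6.5 alone (0.728). Itgb8 went the other way, with 18.8 CPM in EMT6.5 with Bend3, against 11.6 CPM in EMT6.5 alone (ratio 1.62, interval 1.20 to 2.18). Itgb6 had 0 counts in EMT6.5 with Bend3, against 11 in EMT6.5 alone, with an interval of the ratio that ran up to 0.660. None of the 6 members with a mean of at least 5 CPM reached 2-fold, where 11.6% of 10212 genes did in either direction (5.07% higher, 6.57% lower).

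In Bend3 the 4 well detected members, Itgav, Itga5, Itgb1 and Itgb3, were higher with either tumour line. Both comparisons share the 1 library of Bend3 alone. Itga5 had 51.3 CPM in Bend3 with 4T1 and 52.3 CPM in Bend3 with EMT6.5, against 31.8 CPM in Bend3 alone, ratios of 1.61 (interval 1.31 to 1.98) and 1.64 (1.34 to 2.02). Itgb1 had 1088 CPM in Bend3 with 4T1 and 1224 CPM in Bend3 with EMT6.5, against 809 CPM in Bend3 alone, ratios of 1.35 and 1.51. Itgb3 had 133 CPM in Bend3 with 4T1 and 154 CPM in Bend3 with EMT6.5, against 113 CPM in Bend3 alone, ratios of 1.18 (interval 1.05 to 1.32) and 1.36 (1.22 to 1.52). Itgav had 49.8 CPM in Bend3 with 4T1 and 63.4 CPM in Bend3 with EMT6.5, against 42.2 CPM in Bend3 alone, ratios of 1.18 (interval 0.977 to 1.43, which spans 1) and 1.50 (1.26 to 1.80). None of the 4 members with a mean of at least 5 CPM reached 2-fold in either comparison, where 4.96% of 10050 genes with 4T1 (3.18% higher, 1.77% lower) and 4.35% of 10040 genes with EMT6.5 (2.47% higher, 1.88% lower) did in either direction. Itgb5 was near the limit of detection, with 15 counts in Bend3 with 4T1 and 28 in Bend3 with EMT6.5, against 7 in Bend3 alone. The epithelial markers summed to 53.6 CPM in Bend3 with 4T1 and the fibroblast markers to 35.6 CPM in Bend3 with EMT6.5, against 2.43 and 7.51 CPM in Bend3 alone.

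**Figure D4:**
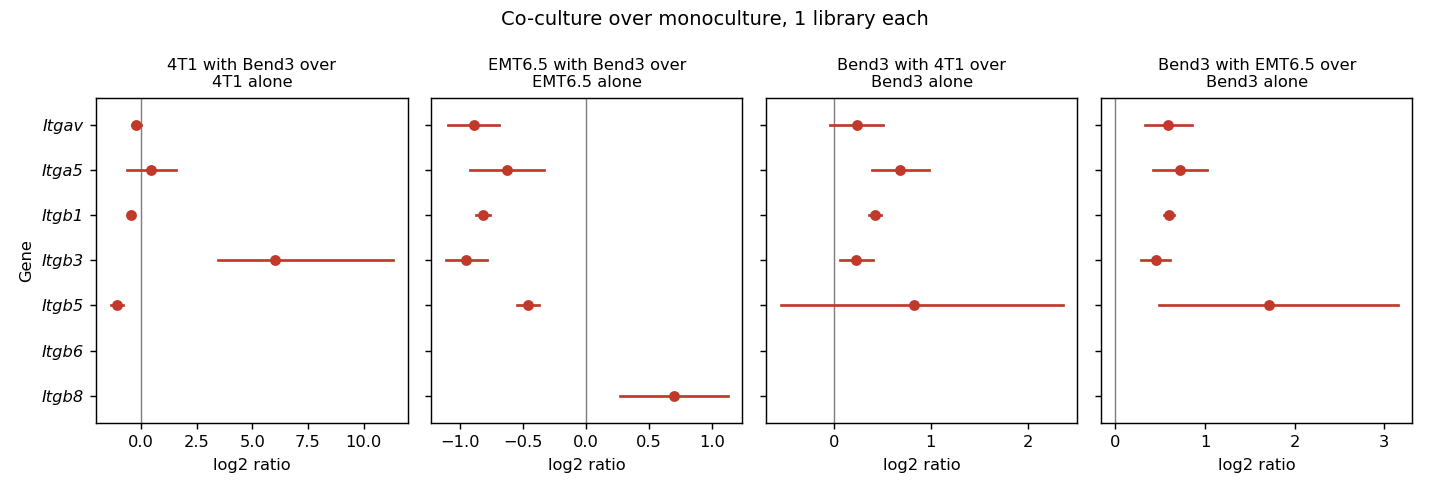
Log2 ratio of CPM in co-culture over monoculture for each member in the 4 comparisons, 1 library each, with exact 95% counting intervals as lines. The horizontal scales differ between panels, and members with 0 counts in a library have no point. Itgb3 is at 6.02 in 4T1 and at -0.95 in EMT6.5.

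Sorted cells can carry RNA of their partner, so the Itgb3 value in 4T1 was set against the partner RNA in that library. The share was estimated as the median over 103 genes with at least 50 CPM in Bend3 with 4T1 and at most 0.5 CPM in 4T1 alone, in CPM of library totals. It was 1.29% of the Bend3 level in 4T1 with Bend3 (quartiles 0.571% to 2.55%). At that share Bend3 RNA would bring 1.59 CPM of Itgb3, which is 10.6% of the 15.0 CPM measured. To give the whole difference, 11.99% of the Bend3 level would be needed. Itgb3 is itself 1 of the 103 genes and came at number 5 by its apparent share, behind Add2 (32.2%), Gprc5b (23.3%), Sema6d (22.9%) and Creld1 (12.2%), and the 90th percentile of the 103 was 5.20%. With the partner share taken out, the log2 ratio of Itgb3 was 5.87, against 6.02 as measured.

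Endothelial markers were higher in the same library. The 14 markers summed to 460 CPM in 4T1 with Bend3 and 167 CPM in 4T1 alone, of which Flt1, a VEGF receptor, gave 273 CPM in 4T1 with Bend3 and 93.9 CPM in 4T1 alone. Pecam1, the endothelial adhesion molecule CD31, had 29.8 CPM in 4T1 with Bend3, against 8.03 CPM in 4T1 alone, and Erg, an endothelial transcription factor, had 4.29 CPM in 4T1 with Bend3, against 0 in 4T1 alone. Sox18 was at 0 counts in both. The share estimated from the 5 endothelial markers that were low enough in 4T1 alone was 1.65%, and other limits on the genes used gave 0.681% and 1.16%. RNA of the other tumour line was estimated in the same way, a check chosen after the values were seen. Over 18 genes of EMT6.5 it was 0.727% in 4T1 with Bend3, and 8.78% would be needed to give the Itgb3 difference. Of the markers that EMT6.5 alone expressed most on the fibroblast list, Col1a1 had 5.86 CPM in 4T1 with Bend3, against 4.24 CPM in 4T1 alone, and Col1a2 5.19 CPM in 4T1 with Bend3, against 1.56 CPM in 4T1 alone. The list's sum was 47.1 CPM in 4T1 with Bend3 and 10.7 CPM in 4T1 alone, of which Pdgfra, at 9.63 CPM in EMT6.5 alone, gave 36.1 CPM in 4T1 with Bend3.

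In the other co-cultured libraries the estimated share of partner RNA was 0.478% in EMT6.5 with Bend3, 1.69% in Bend3 with 4T1 and 1.24% in Bend3 with EMT6.5. Itgb5 and Itgb8, higher in EMT6.5 than in Bend3, took the largest shares from it. Itgb8 had 1 count in Bend3 with EMT6.5, 0.174 CPM of the library total, where EMT6.5 RNA would bring 0.244 CPM. For Itgb5 in Bend3 with EMT6.5 the measured level was 4.87 CPM of the library total, of which EMT6.5 RNA at that share would bring 3.93 CPM, and Bend3 alone had 1.46 CPM. In Bend3 with 4T1 the measured level was 2.55 CPM, of which 0.644 CPM would come with 4T1 RNA. For Itgb1, Itga5, Itgb3 and Itgav in the Bend3 co-cultures the partner share would bring 0.158% to 3.45% of the measured level. Of the rise over Bend3 alone it would bring 25.8% for Itgav in Bend3 with 4T1 and 0.432% to 5.22% for the others.

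**Figure D5:**
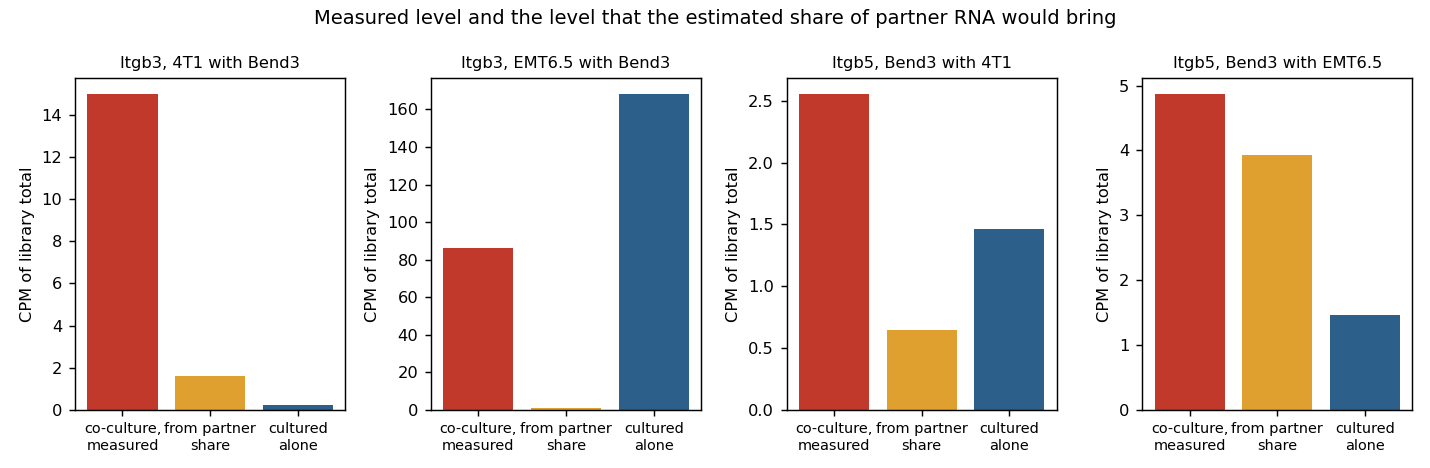
CPM of the library total for Itgb3 in the 2 co-cultured tumour lines and Itgb5 in the 2 Bend3 co-cultures: measured in co-culture, brought by the estimated share of partner RNA, and measured in the line alone (1 library each, bars from 0, vertical scales differ). For Itgb3 in 4T1 the partner share gives 1.59 of 15.0 CPM, and for Itgb5 in Bend3 with EMT6.5 it gives 3.93 of 4.87 CPM.

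A fit of what co-culture did to both tumour lines alike, with cell line as a term and 1 residual degree of freedom, called 0 of 6 members tested in edgeR, 0 at an unadjusted p under 0.05, and 0 with DESeq2. Over all 12005 genes tested in edgeR, 0.292% were called, and 969 genes had an unadjusted edgeR p under 0.05. With DESeq2, 91 of 11978 genes were called, so 0 of 6 sets the members little apart from all genes. Itgb5, lower in both lines, had a log2 fold change of -0.73 (SE 0.379, edgeR adjusted p = 0.686), and Itgb3, with opposite directions in the lines, had 1.06 (SE 0.995, edgeR adjusted p = 0.882).

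Ligands of these receptors were counted in co-culture in the same way. In 4T1, 7 of the 13 ligands with a mean of at least 5 CPM were at least 2-fold higher with Bend3 and 2 at least 2-fold lower. Spp1 had 931 CPM in 4T1 with Bend3, against 88.6 CPM in 4T1 alone, and Edil3, an alpha-v beta-3 ligand of endothelium, had 11.3 CPM in 4T1 with Bend3, against 0.223 CPM in 4T1 alone, from 50 and 1 counts. Partner RNA would bring 0.435 of 967 CPM of Spp1 and none of Edil3, which had 0 CPM in Bend3 with 4T1. EMT6.5 alone had Edil3 at 62.6 CPM and Spp1 at 513 CPM, and RNA of that line as a source for these genes was not tested. Ccn2 (CTGF) had 4.29 CPM in 4T1 with Bend3, against 165 CPM in 4T1 alone. In EMT6.5, 1 of 13 such ligands was at least 2-fold higher and 4 at least 2-fold lower. Postn had 1 count in EMT6.5 with Bend3, against 94 in EMT6.5 alone, Tnc had 2 counts in EMT6.5 with Bend3, against 163 in EMT6.5 alone, and Ccn2 had 77.5 CPM in EMT6.5 with Bend3, against 594 CPM in EMT6.5 alone.

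In Bend3, Npnt, which encodes nephronectin, had 199 CPM in Bend3 with 4T1 and 118 CPM in Bend3 with EMT6.5, against 42.9 CPM in Bend3 alone. Vwf (von Willebrand factor) had 24.7 CPM in Bend3 with EMT6.5, against 7.07 CPM in Bend3 alone, and Tnc had 24.1 CPM in Bend3 with 4T1, against 56.4 CPM in Bend3 alone. Spp1 had 36.4 CPM in Bend3 with 4T1 and 26.2 CPM in Bend3 with EMT6.5, against 11.5 CPM in Bend3 alone. In CPM of library totals, 4T1 RNA would bring 16.3 of 33.7 CPM of Spp1 and EMT6.5 RNA 9.98 of 25.02 CPM. Of the 21 adaptors with a mean of at least 5 CPM, none reached 2-fold in either Bend3 comparison. In 4T1, Fermt1 (kindlin-1) had 52.1 CPM in 4T1 with Bend3, against 170 CPM in 4T1 alone, and Bcar1 104 CPM in 4T1 with Bend3, against 233 CPM in 4T1 alone. Tns1 had 7.67 CPM in 4T1 with Bend3, against 3.12 CPM in 4T1 alone, and partner RNA would bring 6.82 of its 7.97 CPM in library totals. In EMT6.5, Lims2 had 13.3 CPM in EMT6.5 with Bend3, against 42.1 CPM in EMT6.5 alone, and Src 55.4 CPM in EMT6.5 with Bend3, against 130 CPM in EMT6.5 alone.

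Over the 7 libraries of the co-culture set, the genes with the pattern most like each member were found by Pearson's r of log2(CPM + 1) among the 10741 genes that averaged 5 CPM or more. For Itgb3 these were Wbp1 (r = 0.998), Tmem205 (0.991), Man2b1, Lfng and Nxn (each 0.990). For Itgb5 they were Masp1 (0.998), Cd74 (0.995) and Podnl1 (0.994), and for Itga5 Gm37124, R3hdm1 (each 0.991) and Palld (0.990). Itgav was most like Gm42899 (0.977), Csrnp1 (0.974) and Ssr2 (0.973), and Itgb1 like Pdcl3 (0.925), Csrnp2 (0.923) and Brpf1 (0.912). Among the members, Itga5 and Itgb3 ran most alike (r = 0.933), whereas Itgav and Itgb3, the chains of alpha-v beta-3, gave -0.587. The 7 libraries come from 3 cell lines, so these values mostly compare lines, and they are given as a description.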

How the data were processed

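The authors deposited raw read counts per gene. The submitters' processing notes name HISAT2 2.1.0, Trim Galore 0.5.0, HTSeq and the mouse build GRCm38. The human build, the annotations and how reads were counted are not given in the sources used here. Libraries were stranded mRNA libraries read as single ends, per the labels' protocols. The knockdown table named genes by symbol and had no summary lines, so its counter is uncertain, and 10 of its library columns matched no sample label and were not used. In the MDA-MB-231 table the columns named SCR were read as the control samples. Members and gene lists were chosen with earlier results of these data known.

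Each replicated experiment was fitted alone in edgeR 4.0.16 (R 4.3.3; TMM, default filter on low counts, quasi-likelihood F-test, 3 libraries a group), with DESeq2 1.42.0 as an alternative; the edgeR fits were tested on simulated data. Co-culture ratios used TMM over the 7 libraries, and 2-fold changes were counted among genes averaging 5 CPM or more. Exon lengths and positions came from GENCODE vM21, which held 99.3% of the co-culture gene IDs and 95.6% of the knockdown symbols. No pair of replicates agreed within sampling noise (chi-square over degrees of freedom 1.63 to 20.8, highest for the pairs with shPHGDH replicate 1). The text names all 7 members, and from each other list at most 5 called genes (in co-culture at most 3 ligands and 3 adaptors past 2-fold), the largest by absolute log2 value with a mean of at least 5 CPM; other genes were named after their values were seen. Genes named for likeness were the 3 with the highest r (5 for Itgb3).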

Additional observations from a re-analysis of the deposited data

Results flagged for a closer look

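Itgb3 went opposite ways in the tumour lines of the co-culture set. Its log2 ratio was 6.02 in 4T1 with Bend3 over 4T1 alone and -0.95 in EMT6.5 with Bend3 over EMT6.5 alone, and both counting intervals lay clear of 0 on the log2 scale. Each line gave 1 library per condition, so the difference was not tested.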

How the results depend on the processing

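In the knockdown 5 to 6 members were called under 14 alternatives, the sixth being Itgb8 with no filter on low counts or with DESeq2. In MDA-MB-231 4 to 6 members were called under 12 alternatives: ITGB5 missed the threshold without the first library labelled PHGDH OE, and ITGB3 passed without the third control library. Replicate numbers did not pair the samples (same-number correlations from -0.0562 to 0.0495), and with the replicate block 6612 genes were called in the knockdown, against 6905 without it, and 7841 in MDA-MB-231, against 7864, with 5 members called in each. With lane in the model 5822 knockdown genes were called, and the 5 members among them. On the chromosome scale the sign of Itgb1 in the knockdown turned to 0.14. In Bend3 with EMT6.5, Itgb5 turned to a log2 ratio of -0.65 with partner RNA taken out, which the 3.93 CPM brought by that share sets. The share used was 1.24% (quartiles 0.817% to 2.02%). A share of 1.08% would bring the whole rise over Bend3 alone, so the sign was not resolved. With a mean of at least 1 CPM in place of 5, which adds genes of low counts, 4297, 2577, 1685 and 1468 genes were at least 2-fold changed in 4T1, in EMT6.5, in Bend3 with 4T1 and in Bend3 with EMT6.5, against 2591, 1189, 498 and 437. The fit shared by both tumour lines called 35 genes, 204 with no filter, 91 with DESeq2 and 0 without the cell line term (278 at an unadjusted p under 0.05), and the cause was not tested. Itgb8 in that fit had a log2 fold change of 0.013, and -0.028 with library totals, -0.036 with no filter and -0.57 with DESeq2; Itgb3 had -0.69 without the cell line term, against 1.06 with it and 2.34 with DESeq2 (DESeq2 adjusted p = 0.9997). In the co-culture set Itgb3 had 1 count in 4T1 alone, and Itgb6 had 11 counts or fewer in every library. Itgb8 had 94 counts in EMT6.5 alone, 92 in EMT6.5 with Bend3, and 3 or fewer in the other libraries of that set.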
